A study of Mus musculus with 6 samples.

Results

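The B cell genes Cd79a, Cd79b, Ms4a1, Cd22, Blk, Pou2af1 and Cr2 and the IgA transport receptor gene Pigr were read in intestinal RNA of 6 irradiated mice. The members were taken by gene symbol, with older names and gene identifiers also searched. Of the 8 genes, 7 had at least 1 probe, 13 probes in all, among 19057 named genes and 45281 probes. Cd79a had no probe under its names and is not analysed here. Where a gene had several probes, the one of highest average signal, called its brightest, stands for the gene, and the other probes are given beside it. Free ubiquitin (free Ub), the ubiquitin protein not attached to other proteins, was given to 3 mice and its carrier PBS to the other 3. All were male C57 mice, 4 weeks old by the sample labels (the study names the strain C57BL/6J), and all received 7 Gy of total body radiation, so no value compares irradiated with unirradiated intestine. The labels place the injection after the radiation and the collection of intestine 3.5 days after it, while the text of the study also gives an earlier time for the arrays, older mice and injection before radiation. Each mouse gave 1 Illumina MouseWG-6 v2 array, and the authors' normalized log2 signals are used. The gut segment is not stated, and pancreatic enzyme transcripts were present in every sample.

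B cells recognise antigen with a surface immunoglobulin that signals through the Cd79a and Cd79b chains. Activated B cells of the gut lymphoid follicles switch to IgA and become plasma cells of the lamina propria, which secrete IgA joined by the J chain. Pigr is made by the epithelium, binds this polymeric IgA on the side facing the tissue and carries it to the lumen. Resting B cells are among the cells most easily killed by ionizing radiation, and plasma cells are less sensitive. In RNA of whole tissue, fewer cells of a type and less RNA per cell cannot be told apart.

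No measured member passed the test between free Ub and PBS. In limma, a moderated linear model over all probes, 0 of 7 passed an adjusted p under 0.05 and 0 of 7 an unadjusted p under 0.05, where 0.0577% and 5.74% of the 19057 genes passed (0.053% of all probes at the adjusted threshold, and 2.34% of genes as higher and 3.4% as lower at the unadjusted one). On the brightest probes 5 members had a higher mean with free Ub and 2 a lower one. For the 6 B cell genes alone the counts were 4 and 2. Among all named genes 44.3% were higher and 49.7% lower. In these shares, genes at the floor on all 6 arrays counted as neither, and no brightest probe of a member was such. The median difference of the 6 B cell genes was 0.10 on the log2 scale. That of all named genes was -0.0022, which is the value of a probe at the floor on all 6 arrays. For genes above the floor on at least 1 array it was -0.025. The value of 0.10 lies between those of Cd79b and Blk, and Blk was mostly at the floor. Over the 3 B cell genes above the floor on all arrays the median was 0.41, and with values under 4 raised to 4 that of the 6 was 0.0041. The groups overlapped for all 7 members, where they did not overlap for 8.76% of all genes. On the brightest probes, Pigr, Pou2af1, Cd79b and Cd22 were above the floor of the values, near 0, on all 6 arrays. Cr2, Ms4a1 and Blk were at the floor on some arrays. Cd22 was dim, at 1.19 to 3.48 log2, and its values lay in the same range as those of Cr2. Of the 13 probes, 8 had at least 1 floor value and 3 were at the floor on all 6 arrays.

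**Figure D1:**
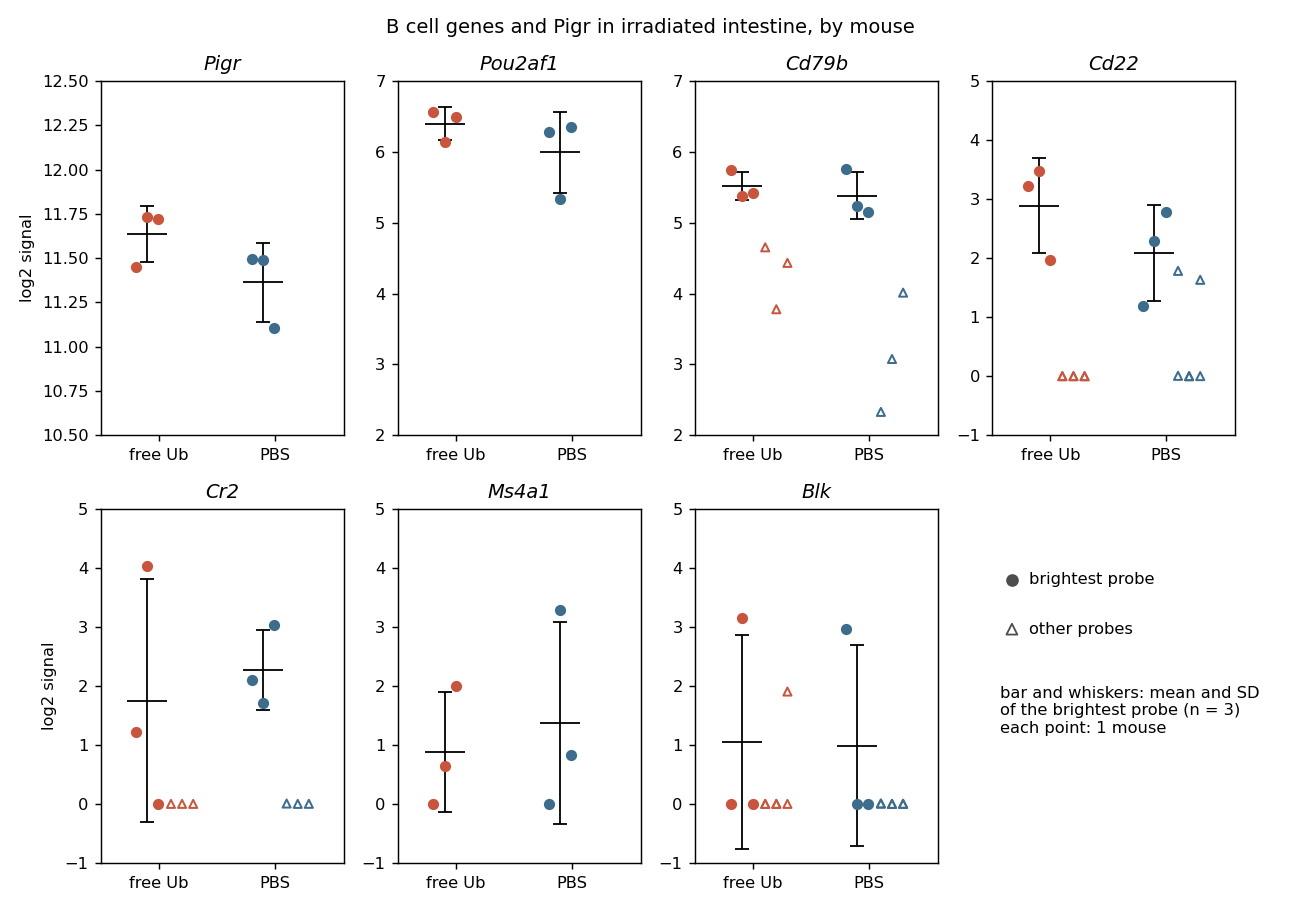
log2 signal of each member (vertical axes, which differ between panels) in the free Ub and PBS mice, 1 point per mouse, with filled circles for the brightest probe, open triangles for other probes, and the mean and SD of the brightest probe (n = 3). Pigr lies between 11.11 and 11.73 in all mice, while Cr2, Ms4a1 and Blk scatter down to the floor in both groups.

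Pigr, which carries polymeric IgA and IgM across the epithelium, had a strong signal in every mouse. It read 11.45, 11.73 and 11.72 log2 in the free Ub mice, against 11.50, 11.49 and 11.11 in the PBS mice. Free Ub mice 2 and 3 had the highest values, but free Ub mouse 1 lay below PBS mice 1 and 2, so the groups overlapped. The means were 11.63 ± 0.16 with free Ub and 11.36 ± 0.22 with PBS (SD, n = 3 each). The difference was 0.27 ± 0.15 (SE), 1.21-fold higher with free Ub, with a 95% interval from -0.13 to 0.67 (limma, adjusted p = 0.872, unadjusted p = 0.138). In fold terms the interval runs from 0.915 to 1.59, so a change of 2-fold in either direction lies outside it. The exact permutation test gave p = 0.3 (two-sided, where 3 against 3 cannot go below 0.1). Without PBS mouse 3 the difference was 0.14.

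The 250 bases before the start of Pigr are shown because they hold an E-box, CACGTG, the site type through which the factors USF1 and USF2 act on the human gene. The window is from the RefSeq annotation of GRCm38.p6, on the plus strand, with the E-box in capitals.
Pigr (chr1:130826434-130826683): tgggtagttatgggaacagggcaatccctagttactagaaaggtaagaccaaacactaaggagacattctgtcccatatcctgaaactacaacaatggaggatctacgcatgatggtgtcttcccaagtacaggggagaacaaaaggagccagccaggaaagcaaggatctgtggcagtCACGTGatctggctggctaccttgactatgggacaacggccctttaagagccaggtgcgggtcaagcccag
The E-box starts 71 bases before the start site, reads the same on both strands, and occurs in 6.02% of 32851 windows of this kind. Usf1 had 5.94 ± 0.26 log2 with free Ub and 5.83 ± 0.28 with PBS, and Usf2 had 4.86 ± 0.36 and 4.98 ± 0.11 (SD, n = 3 each).

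Genes of the pathways known to induce Pigr gave no common direction. Irf1, an interferon-induced factor that acts on the Pigr gene in human cells, read 12.01, 12.14 and 12.40 log2 with free Ub, against 12.40, 11.98 and 11.87 with PBS. Ifngr1, a chain of the interferon gamma receptor, had 8.89 ± 0.17 with free Ub and 8.62 ± 0.15 with PBS (limma, adjusted p = 0.872). Il4ra, the receptor chain for interleukins 4 and 13, read 3.26, 3.55 and 3.94 with free Ub, against 2.50 and 3.34 in PBS mice 1 and 2 and the floor in PBS mouse 3, so that the groups overlapped. The NF-κB subunit Rela had 8.88 ± 0.14 with free Ub and 9.03 ± 0.08 with PBS. Of 17 measured genes in this list, 8 were higher and 9 lower (median -0.03, but 0.04 with array weights), with 0 at an unadjusted p under 0.05.

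Epithelial genes gave the background for Pigr. Of 18 measured, 10 were higher and 8 lower (median 0.07). Of these 1, Cdx2, passed an unadjusted p under 0.05 as lower, where 3.4% of all genes did. Cdx2, an intestinal transcription factor, had 9.55 ± 0.13 log2 with free Ub and 9.83 ± 0.03 with PBS (limma, adjusted p = 0.75). Rab11a, a GTPase of the recycling endosomes through which Pigr passes, had 6.13 ± 0.22 and 5.84 ± 0.16 in the same order, and the related Cdx1 7.93 ± 0.16 and 8.08 ± 0.06, neither past the test. Vil1, the brush border protein villin, had 12.68 ± 0.18 with free Ub and 12.56 ± 0.06 with PBS.

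Some pancreatic enzyme transcripts varied widely between mice. Of 8 measured, all 8 were lower in mean with free Ub (median -0.91), with 0 at an unadjusted p under 0.05. Free Ub mouse 3 was lowest for all 8, and the median was 1.05 without it, 0.09 without PBS mouse 3 and -2.31 without free Ub mouse 1. The enzyme Cpa1, a carboxypeptidase of pancreatic acinar cells, read 12.92, 11.36 and 5.82 log2 with free Ub, against 11.17, 9.06 and 13.13 with PBS. Amy2a5, an amylase, had 13.50 ± 1.02 with free Ub and 14.24 ± 0.22 with PBS, and the elastase Cela2a 12.51 ± 2.58 and 13.44 ± 1.02 in the same order. PBS mouse 3 and free Ub mouse 1, the 2 mice with the highest pancreatic level (2.13 and 2.0 log2 above the mean of the 6), had the lowest Pigr signals. They also had the lowest mean level of the 18 epithelial genes, at -0.12 and -0.10. Free Ub mouse 3 had the lowest pancreatic level (-4.0) and the second highest Pigr signal. The order did not hold for every mouse, since free Ub mouse 2 had the highest Pigr signal with the third highest pancreatic level (0.64), and PBS mouse 2 the third lowest Pigr signal with the second lowest pancreatic level (-1.24). The part of pancreatic RNA in the Pigr values was not tested.

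**Figure D2:**
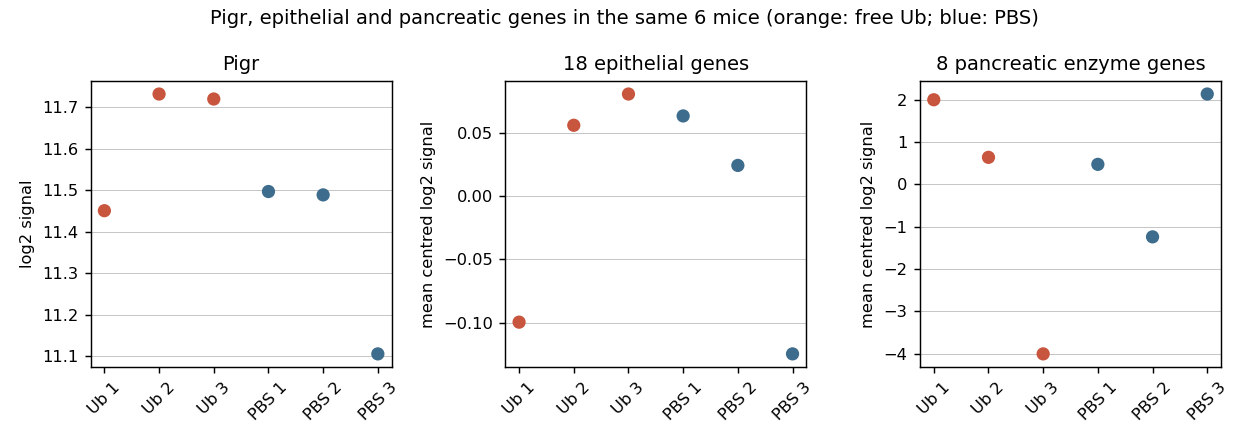
Pigr log2 signal (left) and the mean of centred log2 signals of 18 epithelial genes (middle) and 8 pancreatic enzyme genes (right) in the 6 mice, 1 point per mouse, on axes of different range. PBS mouse 3 and free Ub mouse 1 are lowest for Pigr and for the epithelial genes and highest for the pancreatic genes.

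The genes next to Pigr on its chromosome include 2 receptors for the constant part of immunoglobulins. Fcmr, the IgM receptor of B cells, lies next to it on one side. It read 2.0, 2.17 and 2.05 log2 in the free Ub mice, against 3.56, 3.24 and 2.71 in the PBS mice. All free Ub values lay below all PBS values, and the groups did not overlap for 8.76% of all genes. The difference was -1.10 ± 0.24 (SE; limma, unadjusted p = 0.00736, adjusted p = 0.58). Fcamr, a receptor for IgA and IgM, lies on the other side and read 0.58 and 2.54 in free Ub mice 1 and 3 and 1.53 in PBS mouse 3, with the floor in the remaining mice. These signals lie in the range where the median SD within groups was 0.84 log2 for Fcmr and 1.00 for Fcamr.

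Pou2af1, the coactivator that binds the octamer factors and is required for germinal centres, was higher in mean with free Ub and did not pass the test. It read 6.57, 6.14 and 6.49 log2 in the free Ub mice, against 6.29, 5.33 and 6.36 in the PBS mice. PBS mouse 2 stood apart as low, and the remaining 5 mice lay within 6.14 to 6.57. The means were 6.40 ± 0.23 with free Ub and 5.99 ± 0.57 with PBS (SD, n = 3 each), a difference of 0.41 ± 0.33 (SE) with a 95% interval from -0.48 to 1.29 (limma, adjusted p = 0.872; exact permutation p = 0.4). Without PBS mouse 2 the difference was 0.08.

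The 250 bases before the start of Pou2af1 are shown beside those of Pigr, since of the members with a window in the annotation table these had the strongest signals. The window is from the same annotation, on the plus strand, and its capitals mark TGACG, the half-site of CREB and ATF factors.
Pou2af1 (chr9:51213440-51213689): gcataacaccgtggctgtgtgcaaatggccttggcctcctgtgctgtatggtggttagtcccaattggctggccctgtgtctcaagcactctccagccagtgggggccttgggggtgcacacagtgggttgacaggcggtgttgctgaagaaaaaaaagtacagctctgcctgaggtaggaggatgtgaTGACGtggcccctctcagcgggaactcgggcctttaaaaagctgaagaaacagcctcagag
The half-site, searched on both strands, starts 61 bases before the start and occurs in 17.8% of all windows. It was in none of the windows of Pigr, Cd22, Cr2 and Cd79a. The octamer ATGCAAAT, bound by the partners of Pou2af1 and searched on both strands, was in none of the windows of Pou2af1, Pigr, Cd22, Cr2 and Cd79a, and is in 1.60% of all windows.

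The transcription factors that work with Pou2af1 or beside it gave no common direction. Of 6 measured, 4 were higher and 2 lower with free Ub (median 0.14, but -0.27 without PBS mouse 1), with 0 at an unadjusted p under 0.05. Irf8 had 7.43 ± 0.18 log2 with free Ub and 7.65 ± 0.15 with PBS, and Foxo1 had 6.81 ± 0.20 and 6.74 ± 0.04 in the same order. Spi1, the factor PU.1, was at the floor in free Ub mouse 2 and PBS mouse 1 and reached 3.64 in PBS mouse 2.

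Some plasma cell genes varied widely between mice of 1 group. Others, such as Xbp1 (SD 0.07 with free Ub and 0.13 with PBS) and Pdia4 (0.15 and 0.05), varied little. Mzb1, a chaperone of IgM and IgA secretion, read 9.66, 8.86 and 9.23 log2 in the free Ub mice, against 9.96, 8.36 and 9.12 in the PBS mice. Tnfrsf17, the survival receptor BCMA, read 5.89, 4.63 and 5.11 with free Ub, against 5.84, 4.45 and 5.03 with PBS. Jchain, the chain that joins IgA into the form Pigr carries, read 3.99, 3.14 and 2.64 with free Ub, against 4.19, 2.31 and 3.63 with PBS. Each of these 3 genes, chosen after their values were seen, was lowest in PBS mouse 2, the mouse with the lowest Pou2af1, and had the values of both groups interleaved. Their differences were 0.10 ± 0.48, 0.11 ± 0.51 and -0.12 ± 0.64 (SE; limma, adjusted p = 0.979 for each).

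Across the plasma cell list, 7 of 16 measured genes were higher with free Ub and 9 lower (median -0.0062). PBS mouse 2 had the lowest value for 6 of the 15 genes above the floor on all arrays, and PBS mouse 1 the highest for 6. Prdm1, the factor Blimp-1 that fixes the plasma cell fate, was the 1 gene at an unadjusted p under 0.05, where 5.74% of all genes passed. It read 1.90, 1.50 and 2.01 log2 with free Ub, against 3.78, 2.78 and 2.59 with PBS (difference -1.25 ± 0.38, SE; limma, adjusted p = 0.825). On this brightest probe the groups did not overlap, as for 8.76% of all genes. When its probes were averaged the difference of Prdm1 was -0.60 (limma, unadjusted p = 0.247). Fkbp11, a folding enzyme of secretory cells, read 8.44, 7.22 and 7.32 with free Ub and 8.14, 7.39 and 8.60 with PBS, and Ccr10, a homing receptor of IgA plasma cells, was at the floor in all mice but free Ub mouse 1. Genes of this list that serve protein secretion, such as Fkbp11 and Xbp1, are also used by epithelial and pancreatic cells.

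**Figure D3:**
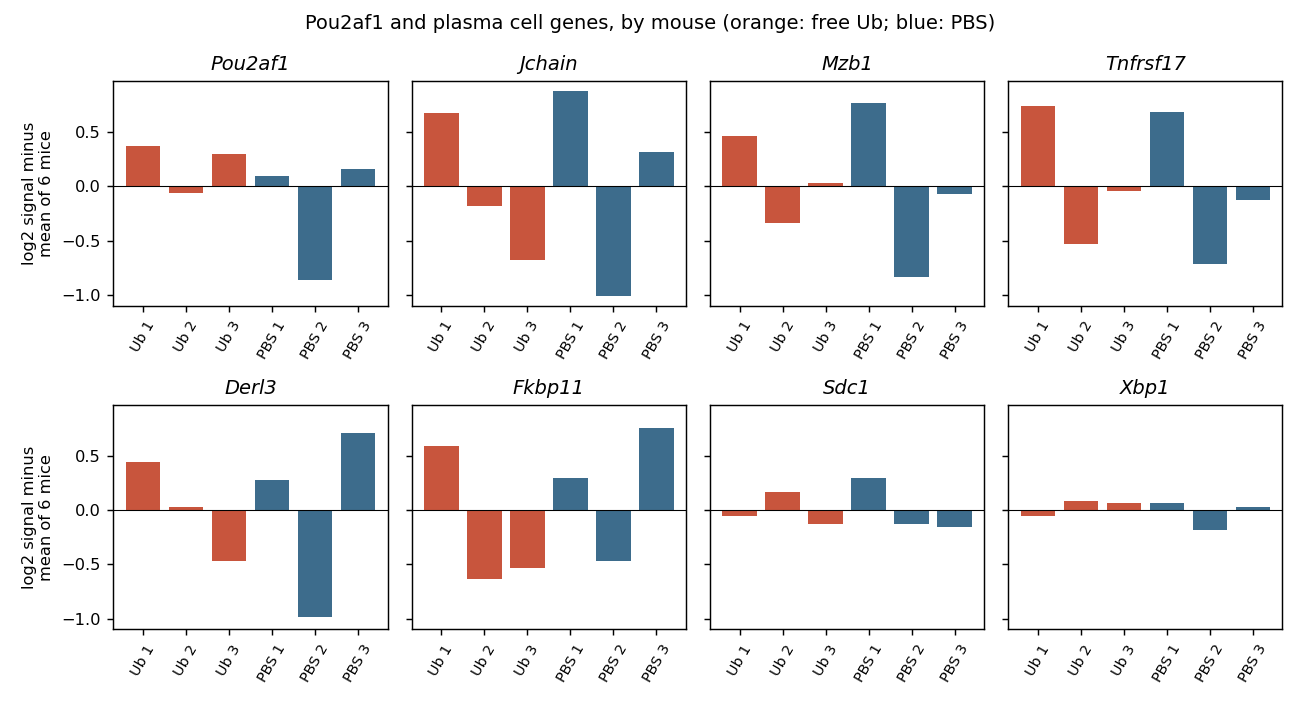
log2 signal of Pou2af1 and 7 plasma cell list genes in each mouse minus the mean of the 6 mice (vertical axes, shared), with free Ub bars in orange and PBS bars in blue; the 7 were chosen after their values were seen. Pou2af1, Jchain, Mzb1, Tnfrsf17, Derl3 and Xbp1 are lowest in PBS mouse 2, and no gene shown separates the groups. Prdm1, which is not shown, was lower in every free Ub mouse than in any PBS mouse.

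Cd79b, the signalling chain of the B cell receptor, had 2 probes that gave differences of unequal size. The brightest read 5.75, 5.38 and 5.42 log2 in the free Ub mice, against 5.76, 5.23 and 5.15 in the PBS mice. PBS mouse 1 had the highest value of all, so the groups overlapped. The difference was 0.14 ± 0.21 (SE) with a 95% interval from -0.42 to 0.70 (limma, adjusted p = 0.979; exact permutation p = 0.6). The other probe read 4.65, 3.78 and 4.43 with free Ub, against 2.33, 3.08 and 4.01 with PBS. On it PBS mouse 3 lay above free Ub mouse 2. The difference was 1.15 ± 0.52 (SE) with an interval from -0.23 to 2.53 (limma, unadjusted p = 0.0837, adjusted p = 0.872; exact permutation p = 0.2). PBS mouse 1 was thus the highest of the 6 on one probe and the lowest on the other.

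Cd22, an inhibitory receptor of B cells that binds sialic acid, had 3 probes that did not give 1 direction. The brightest read 3.22, 3.48 and 1.97 log2 with free Ub, against 1.19, 2.29 and 2.78 with PBS. The difference was 0.80 ± 0.62 (SE), with an interval from -0.85 to 2.45 (limma, adjusted p = 0.872; exact permutation p = 0.3). A second probe was at the floor in all 3 free Ub mice and in PBS mouse 2, and read 1.78 and 1.63 in PBS mice 1 and 3. The third was at the floor in all 6 mice. The group with the higher listed value therefore differed between the probes.

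Cr2, Ms4a1 and Blk were near the floor, and the sizes of their differences are not measured. Cr2, the complement receptor CD21 of B cells and follicular dendritic cells, read 1.22 and 4.02 log2 in free Ub mice 1 and 2 and was at the floor in free Ub mouse 3, against 2.09, 1.71 and 3.02 in the PBS mice. Ms4a1, the surface protein CD20, was at the floor in free Ub mouse 1 and read 0.65 and 1.99 in the others, and in the PBS mice was at the floor in mouse 1 and read 3.28 and 0.83 in mice 2 and 3. Blk, a kinase of the Src family that acts below the B cell receptor, was above the floor in 1 mouse per group, at 3.15 in free Ub mouse 2 and 2.96 in PBS mouse 1. The spread within each group exceeded the difference of the means for all 3 genes. The limma intervals were from -3.65 to 2.60 for Cr2, -3.34 to 2.36 for Ms4a1 and -3.53 to 3.65 for Blk. A further probe of Cr2 and 1 of Blk were at the floor in all 6 mice, and another of Blk read 1.90 in free Ub mouse 3 alone.

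**Figure D4:**
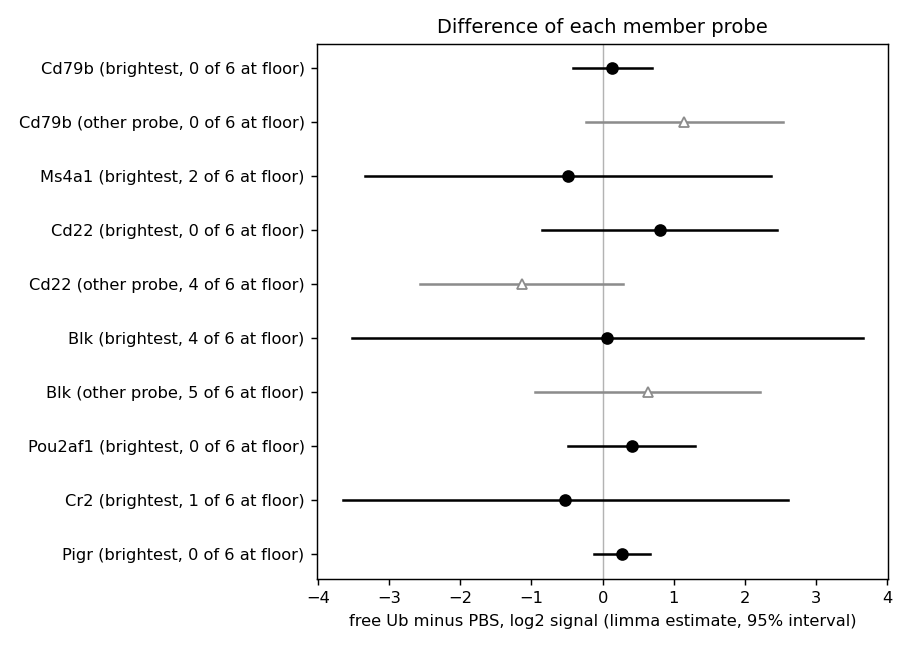
Difference between free Ub and PBS in log2 signal (horizontal axis) with its 95% interval from limma for the 10 member probes not at the floor in all mice, filled circles for brightest probes and open triangles for others. All 10 intervals include 0, and that of Pigr, from -0.13 to 0.67, is the shortest.

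Other B cell genes also gave no common direction. Of 22 measured identity and surface genes, 10 were higher with free Ub and 12 lower (median -0.13, but 0.08 without free Ub mouse 2), and Fcmr was the 1 gene at an unadjusted p under 0.05, where 5.74% of all genes passed. Fcer2a, the low-affinity IgE receptor CD23, read 2.59, 3.34 and 2.57 log2 with free Ub, against 1.86 and 1.89 in PBS mice 1 and 3 and the floor in PBS mouse 2. When its probes were averaged the difference of Fcer2a was 0.01, against 1.59 on the brightest. On the brightest probes all free Ub values lay above all PBS values for Fcer2a and Cd37, and below them for Fcmr. The groups did not overlap for 8.76% of all genes. Ikzf3, the factor Aiolos, was at the floor in all 3 free Ub mice and in PBS mouse 3 and read 2.38 and 1.83 in the other 2. Cd72, an inhibitory coreceptor with values above 6 in every mouse, had 6.57 ± 0.18 with free Ub and 6.72 ± 0.16 with PBS (limma, adjusted p = 0.872). Pax5, the factor that fixes B cell identity, was above the floor in free Ub mouse 1 alone, at 1.27.

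Of 21 measured genes of B cell receptor signalling, 4 were higher with free Ub and 17 lower. The median was -0.21, but -0.11 with a floor of 4 or with probes averaged, and -0.13 without PBS mouse 3. Of all genes 44.3% were higher and 49.7% lower. Genes at the floor on all 6 arrays, of which this list had none, counted as neither. Inpp5d, the lipid phosphatase SHIP1, passed an unadjusted p as lower, with 3.69 ± 0.09 log2 with free Ub and 4.40 ± 0.10 with PBS (limma, adjusted p = 0.171). Malt1, a protease that relays receptor signals to NF-κB, passed as higher, with 4.67 ± 0.08 and 4.42 ± 0.04 in the same order (adjusted p = 0.565). The difference of Malt1 was -0.09 when its probes were averaged. Over all genes 3.4% passed an unadjusted p under 0.05 as lower and 2.34% as higher. The adaptor Dok3 had 6.34 ± 0.22 and 6.78 ± 0.29, and the kinase Btk 4.85 ± 0.41 and 5.27 ± 0.30. Several genes of this list serve T and myeloid cells too.

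**Figure D5:**
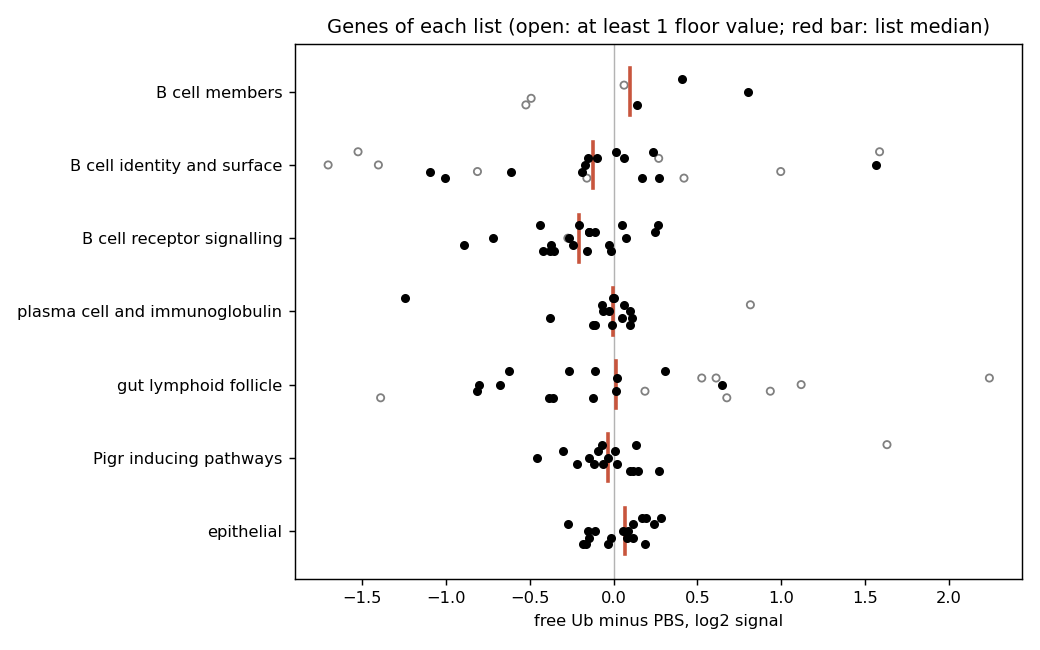
Difference between free Ub and PBS in log2 signal (horizontal axis) for the measured genes of 7 lists, 1 point per gene on its brightest probe, open where the gene had at least 1 floor value, with a red bar at each list median. The 6 B cell members have a median of 0.10 and the 21 signalling genes one of -0.21.

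Genes of gut lymphoid follicles, where B cells gather, were higher for 11 of 21 and lower for 10 (median 0.01, but -0.20 for probes above the median mean), with 0 at an unadjusted p under 0.05. Cxcl13, the chemokine that draws B cells into follicles, read 4.59, 5.34 and 6.58 log2 with free Ub, against 5.59, 5.47 and 5.81 with PBS. Ccl21a, a chemokine of lymphatic vessels and T cell zones, had 6.73 ± 0.34 with free Ub and 7.35 ± 0.42 with PBS, and Ccl28, which draws IgA plasma cells to mucosa, had 4.02 ± 0.19 and 3.38 ± 0.58 in the same order (limma, adjusted p = 0.872 for both). Glycam1, a ligand for lymphocyte entry, was at the floor in all 3 free Ub mice and in PBS mouse 2 and read 2.74 and 1.44 in PBS mice 1 and 3. Gp2, a receptor of the M cells over follicles that is also a protein of pancreatic secretory granules, read 12.37, 10.71 and 6.03 with free Ub and 10.25, 8.65 and 12.61 with PBS, in the same order of mice as Cpa1.

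Markers of other cells were read beside the B cell genes. T cell genes were higher for 4 of 14 and lower for 10 (median -0.15). The 3 of smallest p, all lower on the brightest probe, were Cd8b1 (10.39 ± 0.20 with free Ub and 10.68 ± 0.06 with PBS), Cd27 (5.16 ± 0.19 and 5.66 ± 0.40) and the kinase Zap70 (6.18 ± 0.01 and 6.36 ± 0.19). When their probes were averaged the differences were -0.18 for Cd8b1, 0.12 for Cd27 and 0.017 for Zap70. Myeloid genes were higher for 5 of 12 and lower for 7 (median -0.22, but -0.0071 with a floor of 4 and -0.05 without PBS mouse 1), with Itgam at 3.51 ± 0.36 and 1.68 ± 1.55, Mpeg1 at 7.52 ± 0.07 and 7.65 ± 0.15 and Cybb at the floor in free Ub mouse 2. Smooth muscle genes were higher for 7 of 8 (median 0.23, but -0.16 without PBS mouse 3), with PBS mouse 1 highest for all 7 genes above the floor on all arrays and PBS mouse 3 lowest for 6 of them, and with Myh11 at 8.88 ± 0.13 and 8.54 ± 0.66, Tagln at 4.96 ± 0.30 and 4.72 ± 0.53 and Cnn1 at the floor in PBS mouse 3. None of these 3 lists had a gene at an unadjusted p under 0.05 in limma, and their part in the values of the B cell genes was not tested.

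The genes whose pattern over the 6 mice was nearest to that of Pigr were found among 8856 genes above the floor on all arrays with a mean above 4 log2. The measure was the root mean square distance of values centred on each gene's mean. Dync2h1 (distance 0.047), Emp1 (0.052), Tmem230 (0.055), Smpdl3b (0.057) and Abhd17c (0.059) were nearest, where Pigr itself varied by 0.208 about its mean. Emp1, a membrane protein of epithelia, read 11.84, 12.02 and 12.17 with free Ub, against 11.84, 11.85 and 11.52 with PBS, with PBS mouse 3 lowest as for Pigr. The mean of Cd79b, Pou2af1 and Cd22 was compared in the same way. Cd22 varied most of these, with an SD within groups of 0.81 against 0.27 for Cd79b and 0.44 for Pou2af1. All values of Cd22 lay under the 4 log2 asked of the compared genes. The genes nearest to this mean were H4c18 (0.070), Rfng (0.106), Gatd1 (0.108), Pipox (0.113) and Rab17 (0.120). With 6 mice and 8856 genes such distances describe these samples only.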

How the data were processed

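Total RNA of 6 intestines was measured on Illumina MouseWG-6 v2 BeadChips, 1 per mouse. The authors processed the arrays in GenomeStudio (version not given in the sources used here) with cubic-spline normalization. The deposited values are read as log2 signals from their range, since no source states the transform, and equal medians (2.55) show normalization between arrays. Background handling is not described, and no detection p-values were used. Values no more than 0.01 above the minimum of an array were taken as the floor (14562 to 15253 probes per array).

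Probe symbols came from the platform annotation, updated by gene identifier through RefSeq (GRCm38.p6). Of 45281 probes, 34885 had 1 symbol, 18 several and 10378 none. All probes were fitted in R 4.3.3 with limma 3.58.1 (free Ub minus PBS, moderated test, two-sided, Benjamini-Hochberg over all probes, adjusted p under 0.05). The fit was tested on simulated data. Floor values count as ties in overlaps and exact permutation tests.

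Named were the 8 members, up to 3 genes of smallest p in each of 11 lists, and the 5 genes nearest to Pigr and to the B cell mean. Other genes were named for their role, and Cd37 for its groups that did not overlap, after their values were seen. Members and lists were chosen with earlier results of these data known. Nothing states that mice came from separate litters or days, so p-values measure the spread between these samples. Alternatives were 2 normalizations, a floor of 4 log2, a filter on dim probes, other variance models, array weights, a replicate block, the methods' t-tests, the mean of probes and leaving out each mouse. The 2 normalizations could change little, since the arrays already had nearly equal medians and upper quartiles. Same-numbered mice were not paired by any label.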

Additional observations from a re-analysis of the deposited data

How the results depend on the processing

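Brightness set the precision: the median SD within groups was 1.00 log2 for probes with means under 2, 0.84 for 2 to 4, 0.34 for 4 to 6, 0.23 for 6 to 8 and 0.16 above 10, against 0.19 for Pigr, 0.44 for Pou2af1 and 0.27 for the brightest Cd79b probe. Under all 17 alternatives Pigr stayed higher with free Ub and did not pass an adjusted p under 0.05 (difference 0.14 to 0.42, smallest adjusted p 0.471). Only array weights and leaving out a mouse could move that difference by much. The normalizations began from arrays of nearly equal distribution. The only probe of Pigr lies far above the floor, and the remaining fits use the same group means. With array weights Pigr had a difference of 0.42 and an unadjusted p of 0.0385 in limma (adjusted p = 0.628). The weight was largest for PBS mouse 3 (2.16), the mouse with the lowest Pigr signal, and smallest for PBS mouse 1 (0.26). With the mean of its probes Cd79b had an unadjusted p of 0.0393 in limma (difference 0.64, adjusted p = 0.829). Thus 1 of 7 members passed an unadjusted p in each of these fits, against 0 in the reported fit. Leaving out any 1 mouse gave 0. The median of the 6 B cell genes lay between -0.09 and 0.36 when 1 mouse was left out, and it was negative without free Ub mouse 2 or PBS mouse 3. No member passed an adjusted p in any alternative.

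Members near the floor changed direction. Leaving out 1 mouse, the difference of Blk ran from -0.99 (without free Ub mouse 2) to 1.05, that of Ms4a1 from -1.18 to 0.46 (without PBS mouse 2) and that of Cr2 from -1.66 to 0.35 (without free Ub mouse 3). Blk was at -0.43 without PBS mouse 2 or PBS mouse 3. Cr2 was at 0.0081 with values under 4 raised to 4, where Ms4a1, Blk and Cd22 had no difference left. With the mean of probes, the differences were -0.11 for Cd22, -0.094 for Malt1, -0.033 for Foxo1, 0.11 for Cdx1, 0.12 for Cd27 and 0.017 for Zap70. Leaving out 1 mouse, Foxo1 ran from -0.029 (without free Ub mouse 2) to 0.17. Cela2a ran from -1.71 to 0.56 and Cpa1 from -2.53 to 1.02 (both highest without free Ub mouse 3). Ccr10 ran from -0.0022 to 1.22. Its value of -0.0022 was without free Ub mouse 1, where all values were at the floor and no difference was left. The cause of the changes of direction was not tested.

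Over all probes 24 passed an adjusted p under 0.05 in limma (2336 at an unadjusted p). The count was 59 with array weights, 11 with the methods' unpaired t-test, 1 with a floor of 4, 75 to 112 without 1 mouse, and 0 for probes above the median mean (1168 at an unadjusted p), with an intensity trend and robust variances (1736) and, chosen after seeing the data, for probes with no floor value (1210). With the replicate block it was 0 in limma (2446 at an unadjusted p) and 0 in the methods' paired t-test (1559). Same-numbered mice had deviations that correlated at -0.0028, 0.020 and -0.091, so the numbers were not taken as pairs. With 1 mouse per group in each block, the replicate block cannot change a difference, only its error. Pigr, at 0.27, had an adjusted p of 0.834 in limma with this block, and no member was called.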
